A study of Homo sapiens with 15 samples.

Results

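The circadian clock genes were the 10 genes BHLHE40, NFIL3, PER1, PER2, CRY1, CLOCK, BMAL1, BMAL2, NR1D2 and DBP, taken by the gene symbol that the annotation of the Affymetrix human array gives to each probe set. A probe set is the group of short array probes that together report 1 transcript. Of 22215 probe sets that are not array controls, 16 named a clock gene. For PER1 both probe sets also carried the symbol of MIR6883, a microRNA gene that lies within PER1 in RefSeq, so 14 probe sets named a clock gene alone and PER1 was described but not tested as a gene. DBP was too dim to test. Of 6884 genes tested, 8 were clock genes.

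Expression was measured on 15 arrays of total RNA from A549 cells, a lung adenocarcinoma line with epithelial features that the labels call a bronchial line. The 5 groups of 3 arrays (a, b and c) were untreated cells at 0 h, untreated cells at 24 h, and cells given the cytokine IL-13 for 4 h, 12 h and 24 h; no genetic change to the cells and no dose is labelled. The time-matched comparison is IL-13 24 h against untreated 24 h. No untreated arrays at 4 h or 12 h were analysed, so against 0 h the effect of IL-13 and that of time in culture cannot be told apart. The labels do not say whether arrays of a group came from separate cultures, and the p-values therefore cover just the variation among these 15 arrays, which can be technical.

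In the core of the clock, CLOCK pairs with BMAL1, or with its relative BMAL2, and the pair activates genes through E-box sequences. PER and CRY proteins accumulate and inhibit the pair, while BHLHE40 (also called DEC1) represses at the same E-boxes. A second loop runs through NR1D2 (REV-ERB beta), which represses BMAL1 at ROR elements, and through DBP and NFIL3 (E4BP4), which respectively activate and repress at D-boxes. PER1, PER2, BHLHE40 and NFIL3 are also known to respond within hours to serum, cAMP, glucocorticoid or stress signals, and the lung epithelium is a tissue with a clock of its own. IL-13, a cytokine of allergic airway disease, signals through STAT6.

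The promoter sequences of the genes that passed a test below are shown to place these regulatory elements, with NR1D2 added because its window held the most matches. Each is the 250 bases before a RefSeq transcript start (GRCh38.p14), written 5′ to 3′ on the gene's strand, and capitals mark a match to a searched motif. The windows are chr3:4979187-4979436 on the plus strand for BHLHE40, chr9:91423833-91424082 on the minus strand for NFIL3, chr12:27332586-27332835 on the plus strand for BMAL2 and chr3:23945871-23946120 on the plus strand for NR1D2. NFIL3 and NR1D2 each have a further window, which held no match.
BHLHE40: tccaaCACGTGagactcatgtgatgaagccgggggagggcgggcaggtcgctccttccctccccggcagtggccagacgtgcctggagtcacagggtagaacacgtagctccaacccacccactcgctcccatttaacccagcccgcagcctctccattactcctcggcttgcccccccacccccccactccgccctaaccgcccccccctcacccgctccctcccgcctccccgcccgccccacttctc
NFIL3: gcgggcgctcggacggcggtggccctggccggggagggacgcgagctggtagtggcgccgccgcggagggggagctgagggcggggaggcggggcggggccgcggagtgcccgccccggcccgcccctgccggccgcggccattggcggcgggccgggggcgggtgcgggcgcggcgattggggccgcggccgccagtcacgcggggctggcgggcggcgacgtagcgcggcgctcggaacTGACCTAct
BMAL2: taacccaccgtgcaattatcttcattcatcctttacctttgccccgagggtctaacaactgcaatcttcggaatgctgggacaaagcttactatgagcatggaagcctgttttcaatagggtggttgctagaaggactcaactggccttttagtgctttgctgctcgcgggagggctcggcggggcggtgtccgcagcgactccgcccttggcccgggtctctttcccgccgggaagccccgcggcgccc
NR1D2: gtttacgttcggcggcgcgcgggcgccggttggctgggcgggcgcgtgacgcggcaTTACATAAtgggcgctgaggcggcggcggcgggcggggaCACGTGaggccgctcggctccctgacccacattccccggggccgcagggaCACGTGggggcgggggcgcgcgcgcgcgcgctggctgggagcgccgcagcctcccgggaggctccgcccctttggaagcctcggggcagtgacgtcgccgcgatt

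The E-box CACGTG stands in the BHLHE40 window 245 to 240 bases before the start. The NR1D2 window holds 2 E-boxes, at 155 to 150 and 105 to 100 bases before the start, and a D-box, TTANGTAA, on the opposite strand at 194 to 187. In the NFIL3 window, the capitals mark the ROR element TAGGTCA on the opposite strand, 9 to 3 bases before the start. The BMAL2 window held none of the searched letters, which says nothing more than that. In all, 3 of the 10 clock genes (BHLHE40, NR1D2 and PER1) had an E-box in one of their 14 windows, and 6.34% of 35116 promoter windows of this length had one. D-boxes were in 1.98% and ROR elements in 1.61% of those windows. The cAMP element TGACGTCA was in the windows of 0 of the 10 clock genes and in 1.65% of the 35116. STAT sites of the form TTCNNNGAA were in windows of BMAL1 and DBP and in 6.57% of all windows, while TTC and GAA separated by 4 bases, the spacing preferred by STAT6, was in windows of 0 of the 10 clock genes and in 5.38% of all. The clock gene counts are of genes, some with a further window, while the shares are of windows. With 10 genes, such counts are too small to read against these shares. Both strands were searched, the motifs do not overlap each other in these windows, and a match is a description of the letters, not a measured site.

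Across the 15 arrays the median signal ran from 56.7 to 72.4 and was highest in untreated 24 h cells (69.5 ± 3.1, SD, n = 3, against 59.1 ± 1.8 at 0 h and 59.3 ± 4.4 after 24 h of IL-13). The 3'/5' ratio of beta-actin, a sign of RNA integrity, was 1.001 ± 0.065 in untreated cells at 0 h, 1.171 ± 0.066 in untreated cells at 24 h and 1.180 ± 0.081 after 24 h of IL-13. Of the 9 epithelial and A549 markers, KRT18 (9605 to 12608), AKR1B10 (7879 to 11088), ALDH1A1, KRT8 and KRT7 were bright, AKR1C1 lay between 370.3 and 727, and KRT19 (120 to 207), CDH1 (34.3 to 178) and EPCAM (35.3 to 75.4) were dim. Their summed signal overlapped between all groups. After 24 h of IL-13, KRT8 was higher than in time-matched cells (0.40 ± 0.07, adjusted p = 0.00385) and COL1A1, a fibroblast marker, lower (-0.78 ± 0.15, adjusted p = 0.00494). KRT7 was lower than at 0 h in untreated 24 h cells and after 12 h and 24 h of IL-13 (-0.43 to -0.40), CDH1 higher after 24 h of IL-13 (1.12 ± 0.20) and AKR1C1 higher in untreated 24 h cells (0.74 ± 0.16). Of 4 leukocyte markers with a probe set, 5 fibroblast markers and 5 endothelial markers, 1 in each list was bright enough to test. These were CD3E (45.8 to 137), COL1A1 (48.6 to 178) and PECAM1 (48.2 to 83.8), within the range of CDH1. The brightest of the others in these lists was COL1A2 (19.2 to 74.2), while PTPRC reached at most 26.6, CDH5 12.6 and LYZ 3.56. The summed leukocyte signal ran from 70.5 to 155.1, with groups that overlapped except untreated 0 h (82.3 to 96.4) and untreated 24 h (97.1 to 135), and the endothelial one from 85.8 to 153.4, with overlap between all groups. The summed fibroblast signal was 130 to 192 after 24 h of IL-13 and 226 to 301 in the other 4 groups. The part of these markers in the results was not tested. In bulk RNA, fewer cells of a type and less RNA per cell cannot be told apart.

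Among the clock genes, BMAL2, NFIL3 and BHLHE40 moved most. The distance between a gene's lowest and highest group mean was 1.01 log2 for BMAL2, 0.89 for NFIL3 and 0.82 for BHLHE40, which lie at the 98.3rd, 97.3rd and 96.1st percentiles of the 6884 genes. CRY1 (0.55) and PER2 (0.45) stood at the 82.5th and 71.0th percentiles. NR1D2 (0.31), BMAL1 (0.26) and CLOCK (0.23) were below the median gene, at the 41.2nd, 29.5th and 21.2nd. These distances describe the genes and carry no test. The clock genes were chosen with earlier results of these data known, so the percentiles are not an independent ranking.

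**Figure D1:**
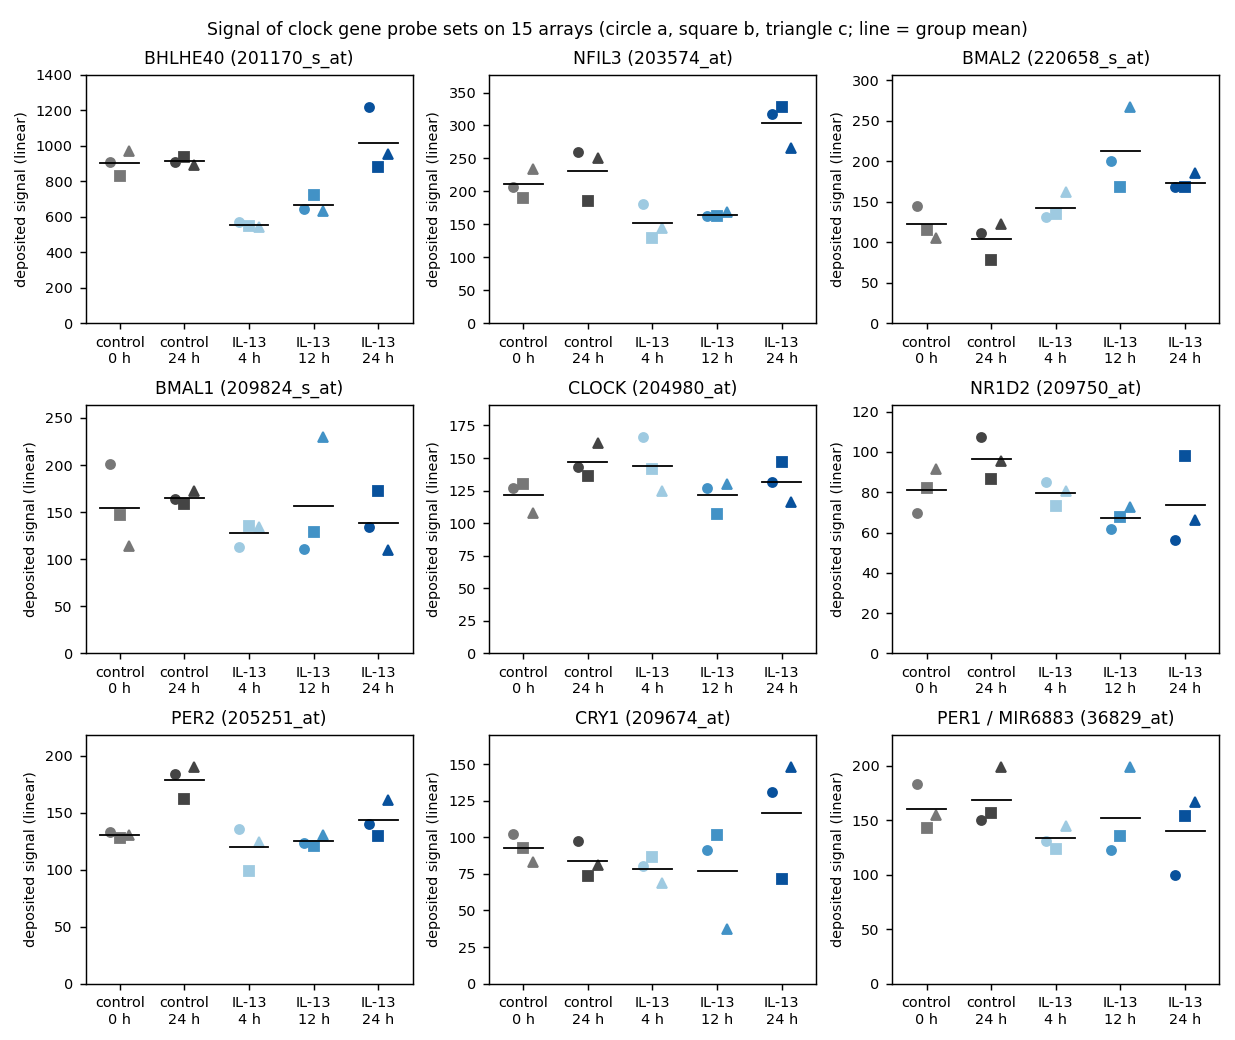
Deposited signal (linear, y axis from 0) of 9 clock gene probe sets on each of the 15 arrays, by group; marker shapes stand for arrays a, b and c and the line is the group mean. BHLHE40 is lowest on the 3 arrays of IL-13 4 h (543 to 573), NFIL3 highest on those of IL-13 24 h (266 to 328), and the 6 untreated arrays lie at 145.3 or below for BMAL2.

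A gene was called at an adjusted p under 0.05, by limma with Benjamini-Hochberg adjustment over all 6884 genes, and differences are in log2(signal + 20) after quantile normalization, given ± SE with 3 arrays per group; they understate changes of dim genes. After 24 h of IL-13 against untreated 24 h cells, 1 of the 8 tested clock genes was called, BMAL2, where 7.00% of all genes were called. In untreated cells 0 of 8 were called between 0 h and 24 h, beside 3.62% of all genes; 1 clock gene, PER2, had an unadjusted p under 0.05, where 19.3% of all genes had one. After 4 h of IL-13 against 0 h, 1 of 8 was called, BHLHE40, beside 1.22% of all genes. After 12 h against 0 h, 2 of 8 were called, BHLHE40 and BMAL2, beside 4.15%. After 24 h against 0 h it was 1 of 8, NFIL3, beside 6.87%. From 4 h to 12 h of IL-13, limma called 0 of 8 and 0% of all genes (2 clock genes and 697 genes in all had an unadjusted p under 0.05), and from 12 h to 24 h it called 2 of 8, BHLHE40 and NFIL3, beside 6.20%. With 8 genes, counts of 0 to 2 are too small to set the clock genes as a group apart from these shares. The comparisons against 0 h share the same 3 untreated arrays.

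**Figure D2:**
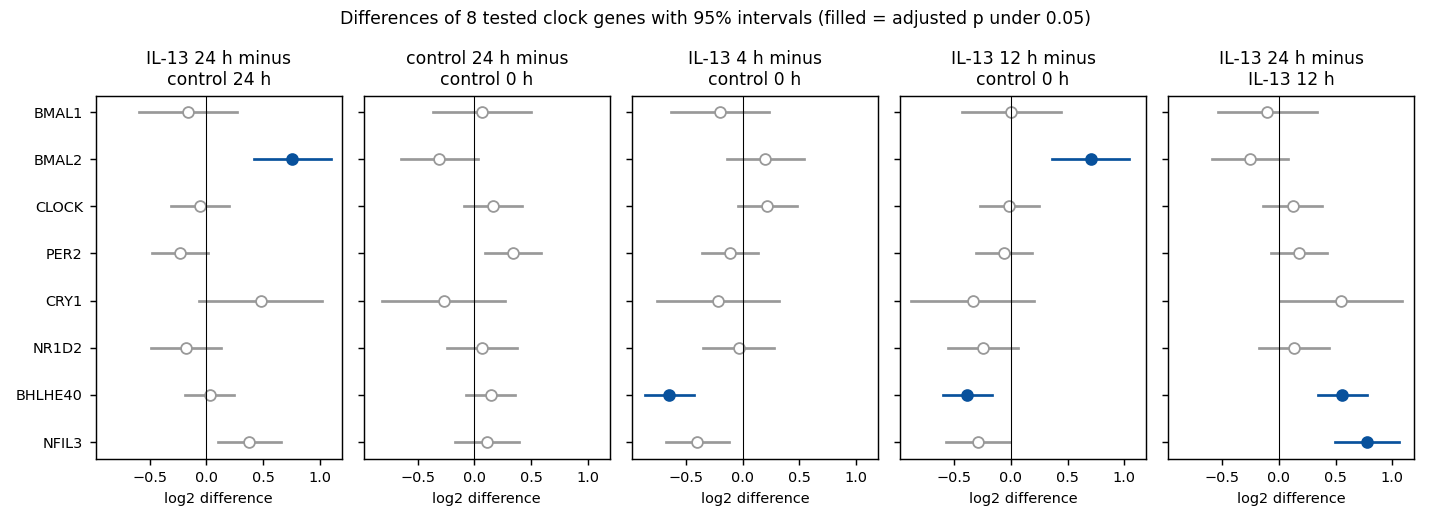
Log2 differences (x axis) of the 8 tested clock genes in 5 comparisons, with 95% intervals of the limma fit (n = 3 arrays per group) and filled points at an adjusted p under 0.05. Filled points are BMAL2 in the time-matched comparison (0.76) and at 12 h, BHLHE40 at 4 h (-0.65) and 12 h, and BHLHE40 and NFIL3 from 12 h to 24 h of IL-13 (0.56 and 0.78).

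Of the activators, BMAL2, a relative of BMAL1 that can take its place beside CLOCK, was higher after 12 h and 24 h of IL-13. Its signal was 145.3, 115 and 105.6 on the 3 untreated arrays at 0 h (mean 122 ± 20.8, SD) and 111, 78.1 and 122 on those at 24 h (103.9 ± 23.1). With IL-13 it was 132, 135 and 162 at 4 h, 201, 169 and 267 at 12 h, and 168, 169 and 185 at 24 h. The arrays of IL-13 12 h and 24 h all lay above the 6 untreated arrays, while those of 4 h overlapped the arrays at 0 h. At 24 h against time-matched untreated cells BMAL2 rose by 0.76 ± 0.16 (1.69-fold, adjusted p = 0.00876). At 12 h it was 0.70 ± 0.16 above 0 h (1.63-fold, adjusted p = 0.0182), and this call was lost without 0 h array b (0.69, adjusted p = 0.0662), 0 h array c (0.62, adjusted p = 0.0856) and the brightest array, c of IL-13 12 h (0.54, adjusted p = 0.1005). Ordered by mean signal, IL-13 12 h stood first (212), then IL-13 24 h (174), IL-13 4 h (143), untreated 0 h and untreated 24 h. The pairs of neighbours overlapped except IL-13 24 h and 4 h, a difference outside the 7 comparisons. At 24 h against 0 h the difference was 0.45 ± 0.16 and did not pass (adjusted p = 0.109), and untreated cells at 24 h stood at -0.31 ± 0.16 from 0 h (adjusted p = 0.305). The median of all genes in the time-matched comparison was 0.00, and BMAL2 kept its call there under each scaling tried.

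BMAL1, the main partner of CLOCK, varied as much within groups as between them. On its brighter probe set the 3 arrays of IL-13 12 h read 110.5, 128.6 and 229.6, and those of untreated 0 h ran from 114 to 201. Its 7 differences lay between -0.20 and 0.20, with adjusted p from 0.667 to 0.995 and 95% intervals reaching from -0.63 to 0.64. A dimmer probe set of BMAL1 read 79.8, 83.8 and 86.7 after 24 h of IL-13 and 58.6, 60.1 and 72.3 in untreated 24 h cells, without overlap. That difference was 0.47 ± 0.17 (adjusted p = 0.200 with every probe set tested), against -0.16 ± 0.21 on the brighter set, so the 2 probe sets differed in sign.

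CLOCK had the smallest distance between group means of the 8 genes. Its group means ran from 121 to 147, its 15 arrays from 107 to 166, and its 7 differences from -0.23 to 0.22 with adjusted p of at least 0.491. In the time-matched comparison it stood at -0.06 ± 0.12, with a 95% interval from -0.32 to 0.20, so a change of BMAL2's size lay outside this interval. Its dimmer probe set was between 24.9 and 48.9 on all arrays. On that set the time-matched difference was -0.14 ± 0.17 (adjusted p = 0.771 with every probe set tested). From 12 h to 24 h of IL-13 it was -0.38 ± 0.17 (adjusted p = 0.335), against 0.12 ± 0.12 on the brighter set, so the signs differed there.

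Among the repressors of the E-box loop, BHLHE40 was lower at 4 h and 12 h of IL-13 than at 0 h and overlapped 0 h again at 24 h. Its signal was 909, 828 and 972 on the 0 h arrays and 909, 939.6 and 891 on the untreated 24 h arrays. With IL-13 it was 573, 546 and 543 at 4 h, 646, 720.1 and 633 at 12 h, and 1219, 878 and 951 at 24 h. The 3 arrays of 4 h lay below those of 12 h, and both groups lay below all 9 arrays of the other groups, which overlapped each other. The difference of 4 h from 0 h was -0.65 ± 0.10 (1.57-fold lower, adjusted p = 0.00210). At 12 h it was -0.38 ± 0.10 (1.31-fold lower, adjusted p = 0.0394). The call at 12 h was lost without 0 h array a (-0.37, adjusted p = 0.111) or c (-0.32, adjusted p = 0.167), and without IL-13 12 h array a (-0.36, adjusted p = 0.117), b (-0.43, adjusted p = 0.0545) or c (-0.36, adjusted p = 0.134). From 12 h to 24 h of IL-13, BHLHE40 rose by 0.56 ± 0.10 (1.47-fold, adjusted p = 0.00294). From 4 h to 12 h it differed by 0.26 ± 0.10, which did not pass (adjusted p = 0.357).

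At 24 h, with time in culture matched, BHLHE40 differed by 0.03 ± 0.10 (adjusted p = 0.887), with a 95% interval from -0.18 to 0.25. Over 19 other settings this difference ran from -0.09 to 0.31, with 2 changes of sign. It was called in 0 of them (adjusted p of at least 0.113). Its dimmer probe set gave a like pattern at a lower signal, with group means of 275 at 0 h, 278 in untreated 24 h cells and, with IL-13, 179 at 4 h, 183 at 12 h and 258 at 24 h. On that set the differences were -0.54 ± 0.12 at 4 h (adjusted p = 0.0908), -0.50 ± 0.12 at 12 h (adjusted p = 0.0573) and 0.41 ± 0.12 from 12 h to 24 h (adjusted p = 0.113). None of these passed in the fit of every probe set; the arrays of 4 h and of 12 h did not overlap those of 0 h on this set either.

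PER2, whose protein inhibits the CLOCK and BMAL1 pair, read highest in untreated cells at 24 h. The signal was 134, 127 and 130.5 at 0 h, 184, 162 and 189.8 in untreated 24 h cells, and 140.2, 129.6 and 161 after 24 h of IL-13. At 4 h and 12 h of IL-13 it lay between 99.3 and 136. The 3 untreated 24 h arrays were above the other 12 in deposited signal, the lowest of them by a narrow margin (162 against 161). The difference of untreated 24 h from 0 h was 0.34 ± 0.12 (1.27-fold) and did not pass (adjusted p = 0.113). With IL-13 at 24 h, PER2 stood at -0.23 ± 0.12 from the time-matched cells (adjusted p = 0.25, 95% interval -0.48 to 0.02). This group also had the highest array medians on average, and in normalized values it overlapped IL-13 24 h. The other PER2 probe set was dim, between 8.27 and 46.7, and stood at -0.25 ± 0.33 between untreated 24 h and 0 h.

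The brighter of the 2 probe sets annotated to both PER1 and MIR6883 ran from 99.9 to 199 over the 15 arrays, with group means from 133 (IL-13 4 h) to 169 (untreated 24 h). Its 7 differences lay between -0.21 and 0.14, with adjusted p of at least 0.697 when every probe set was tested. The dimmer one, whose target accession is a transcript of PER1 in RefSeq, was 34.8, 26.8 and 29.5 at 0 h and 9.55, 7.76 and 10.5 in untreated cells at 24 h. These groups did not overlap, and the difference of -0.90 ± 0.29 did not pass (adjusted p = 0.157) at a mean level in the 22.0th percentile of all probe sets. CRY1, the other inhibitor measured, had its widest spread at 12 h and 24 h of IL-13. It read 91.6, 102 and 37.4 at 12 h and 131, 71.7 and 147.7 at 24 h, against 83.1 to 102 at 0 h and 73.5 to 97.3 in untreated cells at 24 h. The time-matched difference was 0.48 ± 0.26 (adjusted p = 0.270), with an interval from -0.06 to 1.02 that includes both 0 and a change of BMAL2's size.

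NFIL3, the D-box repressor, was highest after 24 h of IL-13. Its signal was 207, 190.1 and 235 at 0 h and 259, 185 and 250.01 in untreated 24 h cells. With IL-13 it was 181, 129 and 145 at 4 h, 162, 163 and 169 at 12 h, and 317, 328 and 266 at 24 h. All 3 arrays of IL-13 24 h lay above the other 12, and the 6 arrays of 4 h and 12 h lay below the 6 untreated ones. From 12 h to 24 h of IL-13, NFIL3 rose by 0.78 ± 0.13 (1.71-fold, adjusted p = 0.00192). Against 0 h it was higher at 24 h by 0.49 ± 0.13 (1.40-fold, adjusted p = 0.0336); this call was lost without 0 h array a (0.47, adjusted p = 0.0936) or b (0.43, adjusted p = 0.126) and likewise for IL-13 24 h array a (0.47, adjusted p = 0.0871) or b (0.42, adjusted p = 0.118).

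In the time-matched comparison NFIL3 stood 0.38 ± 0.13 higher, which did not pass (adjusted p = 0.0894); with each array scaled on its median it was 0.55 and passed (adjusted p = 0.00825), a scaling under which the median of all genes also moved, to 0.14. At 4 h NFIL3 stood at -0.40 ± 0.13 from 0 h (adjusted p = 0.215) and at 12 h at -0.29 ± 0.13 (adjusted p = 0.277). NFIL3 and BHLHE40 both had their 2 lowest group means at 4 h and 12 h of IL-13, and over the 15 arrays their normalized signals had a Pearson r of 0.84. Among the other 27 pairs of tested clock genes r ran from -0.62 (BMAL2 with NR1D2) to 0.67 (BHLHE40 with PER2). The arrays share their groups and their normalization, so these values are descriptions.

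NR1D2, a repressor of BMAL1, was between 56.5 and 107 on all arrays, with a mean of 81.1 ± 10.9 (SD) at 0 h, 96.4 ± 10.4 in untreated 24 h cells and 67.2 ± 5.4 after 12 h of IL-13. Its largest difference was -0.25 ± 0.15 at 12 h (adjusted p = 0.435). In the time-matched comparison it was -0.18 ± 0.15 (adjusted p = 0.492, 95% interval -0.49 to 0.13). DBP, the D-box activator, read between 5.58 and 36.1 on 1 probe set and between 9.77 and 75.5 on the other, under the level needed for a test. Its 2 probe sets differed in sign in all 7 comparisons.

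**Figure D3:**
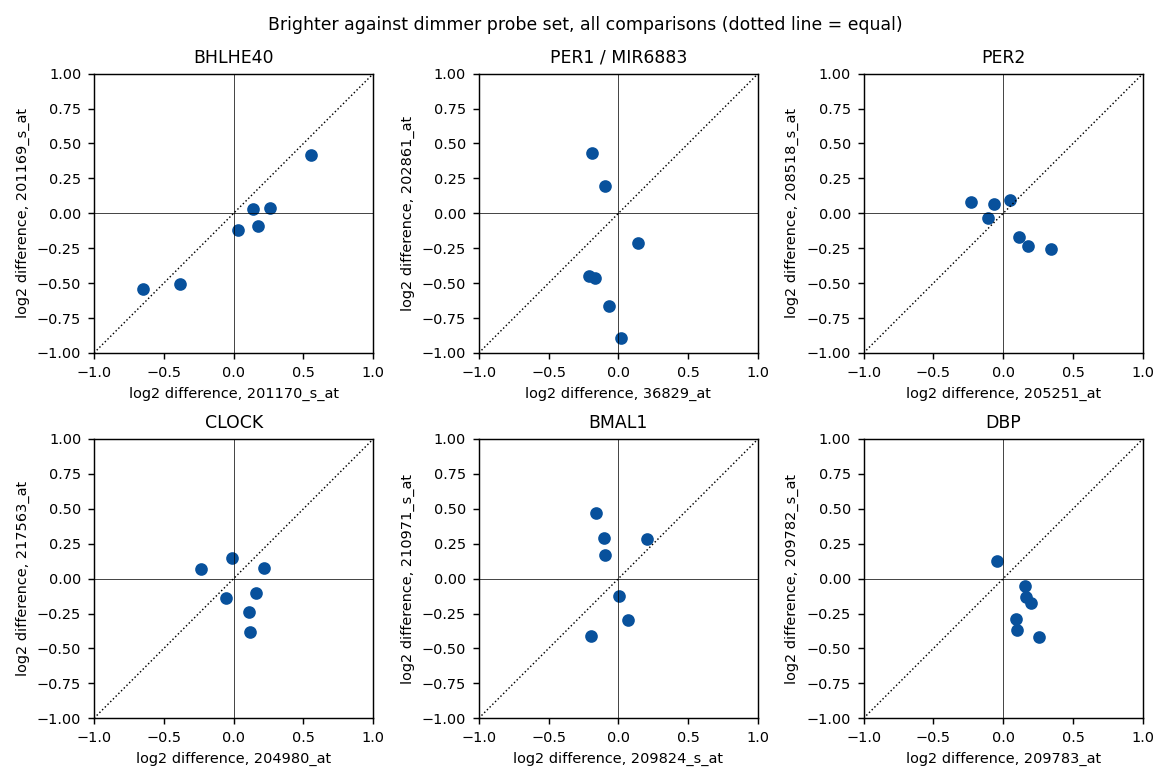
Log2 differences in the 7 comparisons on the brighter (x axis) and dimmer (y axis) probe set of each clock gene with 2 probe sets; the dotted line marks equal differences. The BHLHE40 points lie along the line, with the same sign in 5 of 7, while the other genes had the same sign in 0 to 3 of 7.

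Over the 15 arrays the 2 probe sets of BHLHE40 had a Pearson r of 0.89. For PER1 with MIR6883 it was 0.30, for DBP -0.06, for PER2 -0.16, for CLOCK -0.33 and for BMAL1 -0.35. NFIL3, BMAL2, CRY1 and NR1D2 have a single probe set, so their values could not be set against another.

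The genes whose normalized signal was most like that of a called clock gene were taken as the 3 highest Pearson r over the 15 arrays among all tested genes. For BHLHE40 these were TSC22D3, a glucocorticoid-induced leucine zipper gene (0.94), the amino acid transporter SLC38A2 (0.92) and the zinc finger factor VEZF1 (0.90). TSC22D3, picked for its likeness, had mean signals of 287 at 0 h and 342 in untreated 24 h cells. With IL-13 it read 131 at 4 h, 132 at 12 h and 418 at 24 h, and lows shared with BHLHE40 follow from that choice. For NFIL3 the 3 genes were CCDC59 (0.92), the unfolded protein response factor XBP1 (0.91) and the stress-induced factor ATF3 (0.90). XBP1 read 182 and 211 at 4 h and 12 h of IL-13 and 377 at 24 h, against 280.3 and 324 in the untreated groups. For BMAL2 they were the membrane protein STOM (0.89), the ubiquitin ligase RNF8 (0.89) and the respiratory chain subunit NDUFA7 (0.89). NDUFA7 read 106 in untreated 24 h cells and 219 after 24 h of IL-13.

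**Figure D4:**
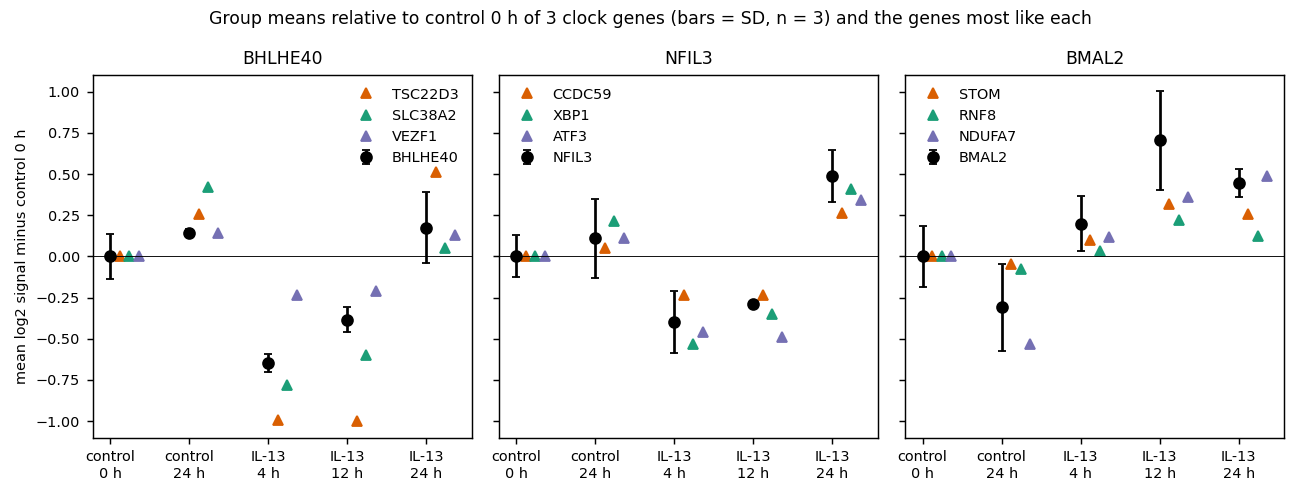
Group means of normalized log2 signal relative to untreated 0 h (y axis) for BHLHE40, NFIL3 and BMAL2 (black, bars are SD of 3 arrays) and the 3 genes most like each (triangles), in the 5 groups. TSC22D3 lies at -0.996 and -1.001 from its 0 h mean at 4 h and 12 h of IL-13, a larger distance than that of BHLHE40 (-0.65 and -0.38).

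Further genes of the clock were taken as a list of 27: kinases, ubiquitin ligases and other partners of the core proteins. Of these, 22 had a probe set of their own symbol and 12 were bright enough to test: NPAS2, TIMELESS, TIPIN, CSNK1D, CSNK1A1, CSNK2A1, GSK3B, BTRC, FBXW11, SIRT1, NONO and PRKAA1. Limma called 0 of 12 in each of the 7 comparisons, beside 0% to 7.00% of all genes. From 0 to 3 of the list had an unadjusted p under 0.05, beside 10.1% to 23.8% of all genes. With 12 genes, such counts are too small to set the list apart from these shares. The smallest adjusted p was 0.0551, in IL-13 24 h against 12 h; there 1 gene passed with the deposited scaling, the mean of probe sets, array weights or without IL-13 24 h array b, and 2 with median scaling. NPAS2, a relative of CLOCK, stood at -0.44 at 12 h against 0 h, the lowest value of the list there. The median difference of the 12 tested list genes lay between -0.07 and 0.04 in the 7 comparisons, beside -0.01 to 0.01 for all genes. PER3, CRY2, RORA, TEF, HLF and BHLHE41 were too dim to test, and NR1D1 has 3 probe sets, each shared with another symbol.

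Of 18 genes known to be clock-controlled in some tissue, 9 were tested, and NAMPT, the rate-limiting enzyme of NAD salvage, was higher after 24 h of IL-13. It rose by 0.68 ± 0.14 against time-matched cells (1.60-fold, adjusted p = 0.00763), a call that was lost without IL-13 24 h array c (adjusted p = 0.0514). Against 0 h it was 0.61 ± 0.14 higher at 12 h (adjusted p = 0.0191; lost without 0 h array b or IL-13 12 h arrays a or b and with every probe set tested, adjusted p up to 0.0942) and 1.05 ± 0.14 higher at 24 h (2.08-fold, adjusted p = 0.000175; kept in all 19). MYC, a growth-promoting transcription factor, was lower at 12 h than at 0 h (-0.42 ± 0.10, adjusted p = 0.0245; lost in 5 of 19 other settings, adjusted p up to 0.103) and higher at 24 h than at 12 h (0.39 ± 0.10, adjusted p = 0.0290; lost in 8 of 19, adjusted p up to 0.130). WEE1, a kinase that holds back entry into mitosis, was lower at 24 h than at 0 h (-0.47 ± 0.13, adjusted p = 0.0378; lost in 9 of 18, adjusted p up to 0.162). At most 1 of the 9 was called higher and at most 1 lower in a comparison, beside 0% to 7.00% of all genes called. The median of the 9 genes ran from -0.15, in the time-matched comparison, to 0.13.

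Since PER1, PER2, BHLHE40 and NFIL3 respond to serum, cAMP and glucocorticoids, 25 other genes induced by these signals were counted, of which 14 were tested. The list was chosen with earlier results of these data known, so its counts and medians beside those of all genes are descriptions. At 4 h of IL-13 against 0 h, 0 of 14 were higher and 5 lower, beside 0.872% of all genes called lower. These were the matrix protein CCN1 (-1.004 ± 0.170), TSC22D3 (-0.996 ± 0.118), SGK1 (-0.58 ± 0.12; lost in 4 of 19 other settings), IER3 (-0.52 ± 0.10; lost in 2 of 19) and the phosphatase DUSP1 (-0.45 ± 0.11; lost in 12 of 19). The median of the list was -0.46, beside 0.00 for all genes. The count at 4 h was 3 when 0 h array a, 0 h array b or array c of IL-13 4 h was left out, and 2 when array a of IL-13 4 h was. At 12 h against 0 h, 6 were lower, beside 2.59% of all genes: CCN1 (-1.43 ± 0.17), CCN2 (-1.03 ± 0.19), TSC22D3 (-1.001 ± 0.118), IER3 (-0.77 ± 0.10), EGR1 (-0.69 ± 0.17; lost in 10 of 18) and ATF3 (-0.49 ± 0.13; lost in 7 of 19), with a median of -0.40. From 12 h to 24 h of IL-13, 6 of 14 rose (TSC22D3 by 1.51 ± 0.12, ATF3, CCN1, DUSP1, IER3 and, in a call lost in 10 of 19 settings with adjusted p up to 0.128, CCN2), beside 4.14% of all genes called higher, and MT2A fell by 0.49 ± 0.13 (lost in 8 of 19), with a median of 0.31.

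The median of this list was below 0 at 4 h and 12 h against 0 h and above 0 from 12 h to 24 h. The differences of BHLHE40 and NFIL3 had the same signs there, though NFIL3 was not called at 4 h or 12 h against 0 h. The list includes TSC22D3 and ATF3, which were also picked above for their likeness to BHLHE40 and NFIL3. Whether BHLHE40, NFIL3 and the list share a signal was not tested. Signs differed from 4 h to 12 h, where the list median was -0.14, with BHLHE40 at 0.26 and NFIL3 at 0.11. They also differed at 24 h of IL-13 against 0 h (list median -0.13, BHLHE40 0.17, NFIL3 0.49). The same held for untreated cells from 0 h to 24 h (list median -0.04, BHLHE40 0.14, NFIL3 0.11). In the time-matched comparison the signs were the same (list median 0.06, BHLHE40 0.03, NFIL3 0.38), with neither gene called. In the time-matched comparison at 24 h, 1 of 14 was called, beside 7.00% of all genes. This was MT2A, a metallothionein (-0.50 ± 0.13, adjusted p = 0.0255), in a call lost in 10 of 19 settings. The list median was 0.06. In untreated cells from 0 h to 24 h, 1 of 14 was called, beside 3.62% of all genes. This was CCN1, which was lower (-0.94 ± 0.17, adjusted p = 0.00610), and the list median was -0.04. At 24 h of IL-13 against 0 h, 1 of 14 was higher and 2 were lower, beside 6.87% of all genes called. TSC22D3 was higher (0.51 ± 0.12), a call lost when 0 h array b or array a of IL-13 24 h was left out. It was also lost with the mean of its probe sets, at 0.27 and adjusted p = 0.384. CCN1 (-0.60 ± 0.17, lost in 9 of 19) and MT2A (-0.93 ± 0.13) were lower. The lows of BHLHE40 and of this list fall at the times without an untreated group, so IL-13 and time in culture cannot be told apart there.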

How the data were processed

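RNA of the cell line was hybridised to 15 arrays of the Affymetrix hgu133a design, 3 per group. The deposited values are signal intensity per probe set on a linear scale. The steps by which the authors made them are not given in the sources used here. With 2% trimmed from both ends, array means were 150.04 to 150.06. Arrays were quantile normalized, 20 was added to each value (the pseudocount, near the 25th percentile) and log2 taken. Each of 11963 genes was represented by its brightest probe set with 1 symbol, with _x_at sets only where there was no other, and tested if its mean log2 signal was over 6.33, the median of the non-control probe sets. The fits used limma 3.58.1 under R 4.3.3 (lmFit, then eBayes with a variance trend; a mean for every group, all 15 arrays, 10 residual degrees of freedom, two-sided), with steps tested on simulated data. The fit of every probe set as its own test has no filter. Alternatives were the deposited scaling, median scaling, scaling on the median of tested genes, pseudocounts of 1 and 62, the filter dropped or set at the 75th percentile, a gene's probe sets averaged or each tested, only the compared groups, no variance trend, array weights, the letter of the array as a replicate block, and each array of the compared groups left out in turn. Arrays of the groups outside a comparison were not left out.

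The clock genes and lists were chosen with earlier results of these data known. Named by rule were the clock genes, list members past the threshold, and the 3 genes most like each called clock gene; NPAS2 and the extremes quoted were named after their values were seen. The gene symbols come from the platform annotation, in which 19053 of 19065 single symbols were matched by Entrez identifier; promoter windows and their coordinates are RefSeq's (GRCh38.p14), and the array files name no build. Precision is limited by 3 arrays per group. Scanner files and detection calls were not used here.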

Additional observations from a re-analysis of the deposited data

How the results depend on the processing

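Of the 7 called differences of clock genes, 4 were called in every alternative run: BHLHE40 at 4 h against 0 h (-0.73 to -0.59) and from 12 h to 24 h (0.43 to 0.64), NFIL3 from 12 h to 24 h (0.66 to 0.86) and BMAL2 in the time-matched comparison (0.59 to 0.87); BMAL2 could not be tested with the filter at the 75th percentile, which removes it. The other 3 kept their sign and were lost in 9 of 19 alternatives (BHLHE40 at 12 h), 4 of 18 (BMAL2 at 12 h) and 6 of 19 (NFIL3 at 24 h against 0 h). Of 49 differences that were not called, 2 were called in an alternative (NFIL3 in the time-matched comparison with median scaling, and BMAL2 at 24 h against 0 h with array weights, adjusted p = 0.0460), and 22 changed sign in at least 1. For IL-13 12 h against 0 h, 2 clock genes were called; the count was 1 with no filter, with the 75th percentile filter and with no variance trend, 0 with every probe set tested, and 0 to 1 when each array was left out. With the replicate block it was also 1, BMAL2. For 24 h against 0 h the count of 1 became 0 with no filter or every probe set, 2 with array weights, and 0 to 1 with each array left out. In the time-matched comparison the count of 1 became 2 with median scaling and 0 with the filter at the 75th percentile. The labels do not say whether the replicate letters pair the arrays. Arrays of 1 letter had deviations that correlated at -0.22 to 0.11, over 0.1 in 3 of 30 pairs. Arrays of different letters had -0.18 to 0.27, over 0.1 in 7 of 60 pairs. No closer likeness within a letter was seen, which does not exclude pairing. Median scaling brought the median of all genes to 0.14 in the time-matched comparison and to -0.15 between untreated 24 h and 0 h (from 0.00 in both), and the count of all genes called from 482 to 1016 and from 249 to 869. With each array left out, the counts of all genes called ran from 192 to 537 in the time-matched comparison (482 with all arrays), 66 to 225 for untreated 24 h against 0 h (249), 36 to 74 at 4 h (84), 136 to 187 at 12 h (286), 210 to 353 at 24 h against 0 h (473) and 194 to 372 for 24 h against 12 h (427). With only the compared groups 482 became 243; 249 became 378 with scaling on tested genes and 154 with no filter; and the count of 0 between 4 h and 12 h became 1 to 4 in 4 settings. The counts of list genes were recomputed under the same alternatives, a step added after seeing the data.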
